A study of Ovis aries with 4 samples.

Results

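The 6 genes FAT4, LATS1, LATS2, AMOTL1, VGLL4 and CCN1 of the Hippo signalling pathway were followed through maps of N6-methyladenosine (m6A) in ovaries of Cele black sheep, out of 5261 genes with an m6A peak in at least 1 of the maps. They were selected by gene name with earlier results of these data known, so that each had at least 1 peak is not a result. Together they held 2 of the 3656 peaks of the aged ovary and 7 of the 4378 peaks of the young ovary. The aged ovary came from sheep of 5 to 6 years and the young ovary from sheep of 1 to 2 years, with no treatment or genotype given for either. At each age RNA was immunoprecipitated with an antibody against m6A and sequenced beside an input without antibody, which makes 4 samples, and 1 peak list per age was analysed. How many animals stand behind each list is not given in the sources used here. Each peak marks a segment of RNA that the antibody enriched, and its fold enrichment, p-value, adjusted p and feature label are the authors' own values. With 1 list per age nothing below has a replicate check, and no test between the ages could be made. Sequencing depth and transcript levels were not given in the sources used here. In whole ovary, fewer cells of a type and less RNA or methylation per cell cannot be told apart.

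Hippo signalling restrains tissue growth through a kinase chain. The kinases STK3 and STK4 activate LATS1 and LATS2, which phosphorylate the coactivators YAP1 and WWTR1 (TAZ) and keep them out of the nucleus. Unphosphorylated YAP1 binds TEAD factors on DNA and switches on growth genes such as CCN1 and CCN2, while VGLL4 competes for TEAD. Mouse ovaries whose Hippo signalling is disrupted by cutting the tissue show increased follicle growth and higher levels of CCN growth factors. The m6A mark is usually densest near stop codons and in 3' UTRs, and proteins that read it act on the splicing, translation and decay of the transcript.

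By the authors' values, aged peaks were weaker on the whole. The median fold was 1.88 for aged and 2.05 for young peaks, and the median log10 p was -6.22 for aged and -15.3 for young peaks. Both lists start at a fold of 1.5. They also hold weak peaks, with the authors' adjusted p reaching 0.557 in the aged and 0.432 in the young list. At an adjusted p of at most 0.01, 3373 of the 3656 aged and 4353 of the 4378 young peaks remained. Shares over all genes or peaks below include the weak peaks. Markers of ovarian cell types with a peak are counted next. The share of all annotated genes with a peak was not computed, so these counts only describe the markers. Among 7 granulosa genes, 2 had an aged peak (FSHR and INHBB) and 3 a young peak (FSHR, INHBB and INHBA). Of 5 theca and luteal genes, 0 had an aged peak and 2 a young peak (STAR and CYP17A1), and of 6 oocyte genes, 1 had an aged peak (NOBOX) and 1 a young peak (FIGLA). A gene without a peak may still be transcribed.

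LATS2 and AMOTL1 had peaks at both ages, and FAT4, LATS1, VGLL4 and CCN1 had a peak in the young list and none in the aged list. Over all genes with a peak, 26.9% had one in the aged list only, 41.3% in the young list only and 31.8% in both. The 6 genes were chosen with these results known, so their own split is a description and is not read against those shares. All 9 peaks lay within 1 exon, as judged from a width equal to the genomic span, were 148 to 251 bases wide and had an adjusted p of 0.000195 or less.

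**Figure D1:**
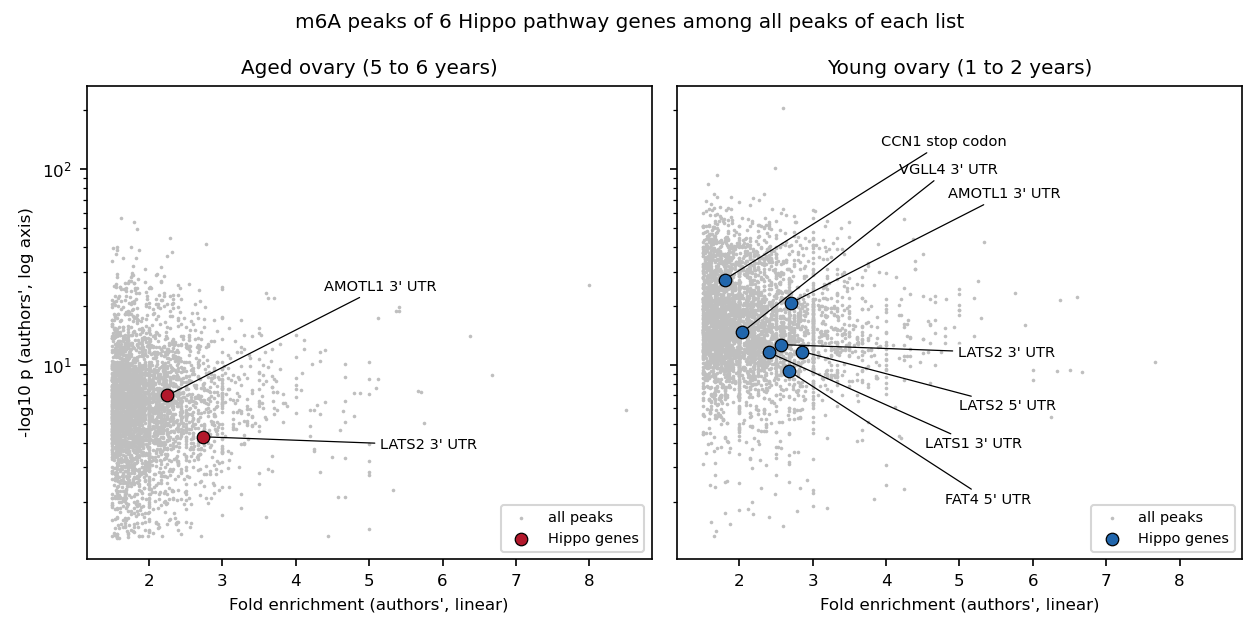
Fold enrichment (x axis, linear) and -log10 p (y axis, log axis) of every peak in the aged list (left) and the young list (right), with the peaks of the 6 Hippo genes as large named points. The 2 aged points lie at folds of 2.25 and 2.74, and the 7 young points spread between 1.80 (CCN1) and 2.86 (the LATS2 peak labelled 5' UTR).

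FAT4 encodes a giant protocadherin at the cell surface, the mammalian relative of the fly Hippo receptor Fat. It had no aged peak and 1 young peak, labelled 5' UTR, on the minus strand of chromosome 17 (32693183 to 32693432). The young peak had a fold of 2.67 and a log10 p of -9.34. By fold it stood at percentile 80.4 of the young list, but by significance only at percentile 13.4, the lowest of the 7 young peaks. The 5' UTR label itself was infrequent, with 2.49% of aged peaks (95% Wilson interval 2.03 to 3.05) and 1.55% of young peaks (1.23 to 1.96). Among the 68 young peaks so labelled, that of FAT4 stood at percentile 82.4 by fold.

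LATS2, the kinase that acts with LATS1 directly on YAP1 and WWTR1, was the only one of the 6 genes with more than 1 peak in a list. On the plus strand of chromosome 10 it had 1 aged peak labelled 3' UTR (35929266 to 35929465). The young list held a peak labelled 3' UTR (35929316 to 35929465) and another labelled 5' UTR (35906174 to 35906323), 22992 genomic bases upstream. The 3' UTR peak had a fold of 2.74 in the aged list and 2.57 in the young list. Its log10 p was -4.29 in the aged list and -12.7 in the young list, so that peaks of similar fold differed widely in p.

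The young 5' UTR peak of LATS2 had the highest fold of the 9 peaks, 2.86, with a log10 p of -11.7. No aged peak overlapped it, as for most young peaks with this label. Of the 68 young peaks labelled 5' UTR, 29 (42.6%, 31.6 to 54.5) overlapped an aged peak. A gene with both a 5' UTR and a 3' UTR peak was rare at either age, with 23 of 3086 genes in the aged list and 11 of 3846 in the young list, LATS2 being one of the 11. Any 5' UTR peak was held by 83 genes in the aged list and 64 in the young list. With stop codon labels counted beside 3' UTR labels, genes with both kinds numbered 25 in the aged list and 17 in the young list. At least 2 peaks of any label were held by 15.1% of aged and 12.1% of young genes.

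LATS1, the paralogous kinase, had no aged peak and 1 young peak on the minus strand of chromosome 8 (73955786 to 73955936), labelled 3' UTR. Its fold was 2.40 and its log10 p -11.6, at percentiles 69.9 and 26.2 of the young list. In the young list the LATS kinase genes thus both carried a 3' UTR peak of moderate fold, 2.40 in LATS1 and 2.57 in LATS2, and in the aged list only LATS2 did.

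AMOTL1 encodes an angiomotin-like junction protein that binds YAP1 and holds it in the cytoplasm. Its peak lay on the minus strand of chromosome 15 and was labelled 3' UTR at both ages, at 15181075 to 15181275 in the aged list and 15181025 to 15181275 in the young list. The fold was 2.25 in the aged list and 2.71 in the young list, and the log10 p was -6.98 in the aged list and -20.8 in the young list. Within its own list the peak stood at fold percentile 75.5 in the aged list and 82.0 in the young list. Among the 6 genes AMOTL1 had the most significant aged peak and, after CCN1, the most significant young one.

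VGLL4, the transcription cofactor that competes with YAP1 for TEAD, had no aged peak. Its 1 young peak was labelled 3' UTR on the minus strand of chromosome 19 (55530526 to 55530676), with a fold of 2.04 and a log10 p of -14.7. Both values lay near the middle of the young list, at percentiles 49.6 and 46.4.

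CCN1, a secreted matrix protein and a standard target of YAP1 and TEAD, had no aged peak and 1 young peak, labelled stop codon, on the plus strand of chromosome 1 (62638821 to 62638968). This peak combined the lowest fold of the 9, 1.80, with the smallest p, a log10 p of -27.3. It stood at percentile 28.4 of the young list by fold and 83.6 by significance, and of the 1279 young peaks with a fold no higher, 268 (21.0%) had a p as small or smaller. The stop codon label was carried by 41.3% of young peaks (39.8 to 42.7) and 15.3% of aged peaks (14.2 to 16.5). Strand mattered for this label: it made up 27.5% of aged and 43.1% of young peaks on the plus strand, where CCN1 lies, but 2.58% of aged and 39.0% of young peaks on the minus strand. The label may not mark an actual stop codon. When a young gene carried both labels, the peak called stop codon was the more 3' one in 209 of 223 pairs with a peak called 3' UTR, the reverse of their order in a transcript. Among aged genes the same was seen in 75 of 82 plus-strand pairs and in 5 of 14 minus-strand pairs.

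No aged peak overlapped the young peaks of FAT4, LATS1, VGLL4 and CCN1. The nearest aged peak on the same chromosome was in KATNA1, 39.4 kb from the LATS1 peak, in SPRY1, 1857 kb from the FAT4 peak, and in PKN2, 3437 kb from the CCN1 peak. For the LATS2 5' UTR peak it was the aged LATS2 3' UTR peak.

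Of the 7 young peaks, 2 shared 1 or more bases of the same strand with an aged peak, and both aged peaks overlapped a young one. Over all peaks, 41.0% of aged peaks overlapped a young peak and 34.3% of young peaks overlapped an aged peak. To set this beside significance, the young list was divided into 10 classes of about equal size by p. In the class that held CCN1, with log10 p between -33.6 and -24.7, 129 of 436 peaks (29.6%, 25.5 to 34.0) overlapped an aged peak. In the class of FAT4 it was 149 of 448 (33.3%, 29.1 to 37.7), and in that of VGLL4 155 of 440 (35.2%, 30.9 to 39.8). Most young peaks of each of these classes thus overlapped no aged peak, whichever gene they lay in.

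**Figure D2:**
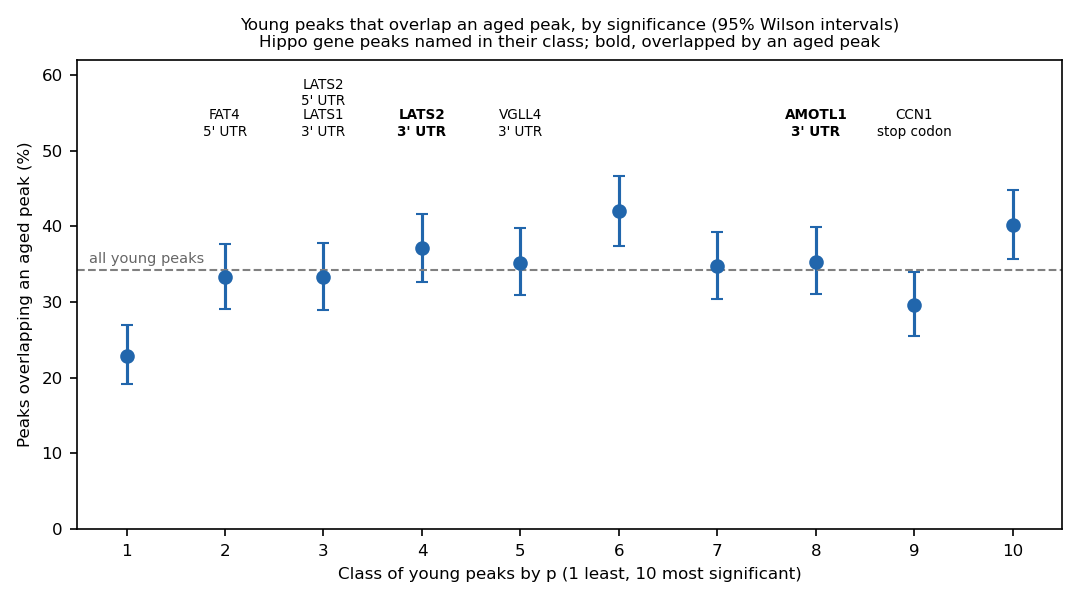
Share of young peaks that overlap an aged peak (y axis, percent, points with 95% Wilson intervals) in 10 classes of the young list by p (x axis, least to most significant), with the 7 Hippo gene peaks named above their class. The share lies between 22.9% in the least significant class and 42.0%, against 34.3% for all young peaks, and the named peaks in bold are the LATS2 and AMOTL1 peaks labelled 3' UTR that an aged peak overlapped.

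The overlapping peaks of LATS2 and AMOTL1 shared 1 boundary to the base and differed at the other by 50 bases. In LATS2 the 3' boundary was the same and the aged peak began 50 bases further 5', with 150 shared bases. In AMOTL1 the 5' boundary was the same and the aged peak stopped 50 bases earlier at its 3' side, with 201 shared bases. Peak widths moved in such steps in general, since 87.3% of aged and 86.9% of young peaks within 1 exon had a width within 2 bases of a multiple of 50. Among 1429 pairs in which 1 aged and 1 young peak of a gene overlapped only each other, 49.9% shared at least 1 boundary and 10.1% both.

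The higher fold stood in the aged list for LATS2, as in 42.1% of these 1429 pairs, and in the young list for AMOTL1. The p was weaker in the aged list in 94.3% of the pairs, LATS2 and AMOTL1 among them. Whether equal folds mean equal methylation in both lists is unknown, since depth was not given.

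**Figure D3:**
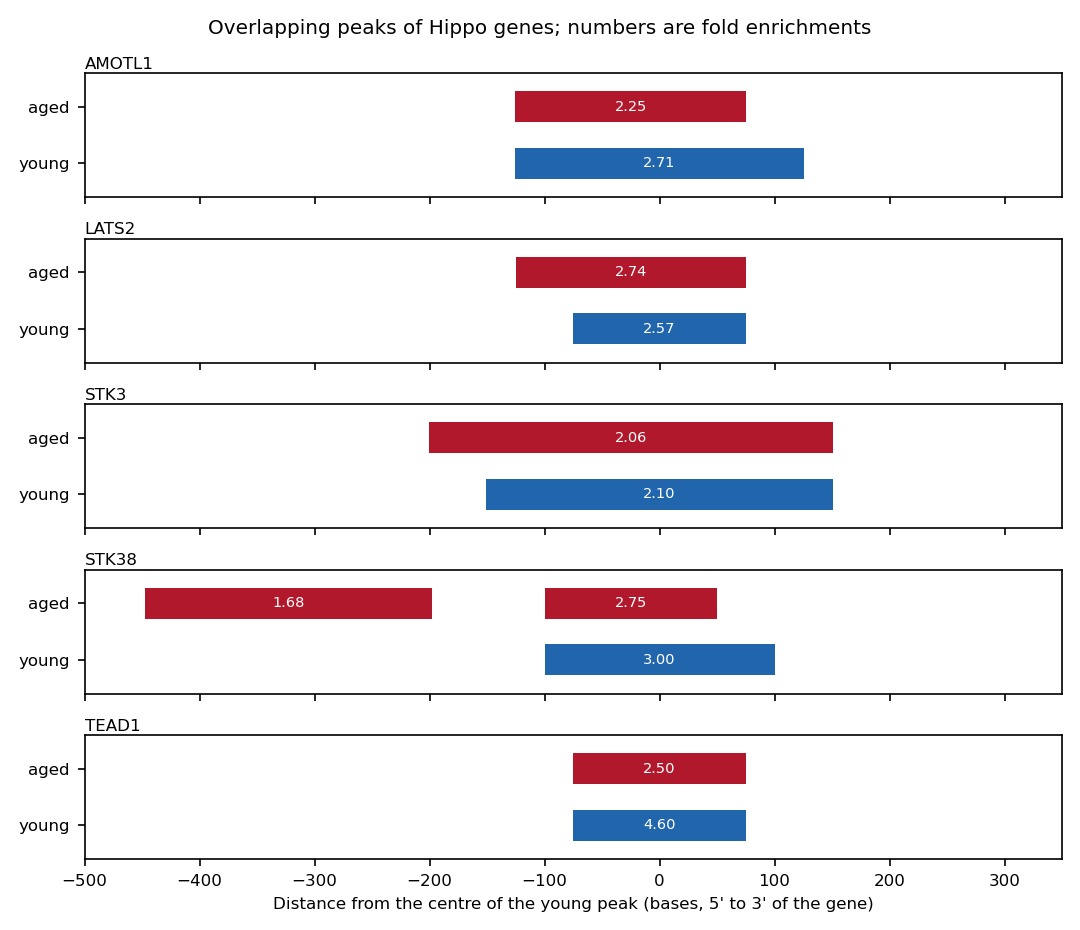
Extent of the aged (upper bar) and young (lower bar) peaks of the 5 Hippo genes with overlapping peaks, in bases from the centre of the young peak (x axis, 5' to 3' along the gene), with the fold written on each bar. The bars of AMOTL1, LATS2, STK3 and STK38 share 1 edge and differ by 50 bases at the other, those of TEAD1 coincide, STK38 has a further aged bar with a fold of 1.68, and the young LATS2 peak labelled 5' UTR lies outside the window.

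The rest of the pathway was read from a list of 45 genes that includes the 6. Peaks were found for 13 of the 45, with 1 gene in the aged list only, 6 in the young list only and 6 in both. Apart from the 6 genes described, 7 of the remaining 39 had a peak, 1 in the aged list only, 2 in the young list only and 4 in both. These counts are too small to set against the shares of 26.9%, 41.3% and 31.8% over all genes. The share of all annotated genes with a peak was not computed, so having or lacking one is not read as a trait of the pathway. The other 32 genes of the 45 had no peak in either list. They include the coactivators YAP1 and WWTR1, the kinase STK4 with its scaffold SAV1 and the LATS activators MOB1A and MOB1B, the upstream tumour suppressor NF2, and the YAP1 target CCN2.

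Among the cadherins, DCHS1, the ligand of FAT4, had an aged peak only, labelled 3' UTR, with a fold of 1.52 near the lower limit of the list and a log10 p of -8.65. FAT3, a relative of FAT4, had a young peak only, labelled 3' UTR (fold 1.86). The cadherin genes with a peak had it at 1 age each, FAT3 and FAT4 in the young and DCHS1 in the aged ovary. Such a split is common, since over all genes only 31.8% had peaks at both ages. With folds of at least 2.00, neither DCHS1 nor FAT3 kept its peak. The split is therefore not read as a pattern of the cadherins.

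Of the kinases, STK3 (MST2), which activates LATS1 and LATS2, had a stop codon labelled peak at both ages, with folds of 2.06 in the aged and 2.10 in the young list. STK38, a kinase related to LATS1 and LATS2, had aged peaks with folds of 2.75 and 1.68, both labelled 3' UTR, and a young peak with a fold of 3.00 labelled stop codon. The first aged peak overlapped the young one by 150 bases under another label. STK38 lies on the minus strand, where few aged peaks of any gene were called stop codon, so the labels are not read as a difference of this gene. MAP4K4, which can phosphorylate the LATS kinases, had aged peaks labelled 3' UTR (1.70) and exon (2.43, adjusted p 0.0263). Its young exon peak (1.5) was not overlapped by the aged ones. The aged exon peak ended at 99876891 and the young one began at 99876941, close beside it. Neither of these exon peaks lay within 1 exon, and they are not read as separate sites.

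Nearer the end of the pathway, AMOT, the angiomotin after which AMOTL1 is named, had a young peak only, labelled 3' UTR, with a fold of 1.69 and a log10 p of -27.1. That pairing of a low fold with a small p resembles the CCN1 peak. TEAD1, a DNA-binding partner of YAP1, had a 3' UTR peak with identical boundaries at both ages, on the minus strand of chromosome 15 (39527092 to 39527241). Its fold was 2.50 in the aged list and 4.60 in the young list, the highest among the peaks of the 13 genes. In 71 of the 1429 pairs (4.97%) the aged fold was as low or lower relative to the young one. Yet its log10 p was -9.27 in the aged list and -8.09 in the young list, and only 5.60% of the pairs had the smaller p in the aged list.

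**Figure D4:**
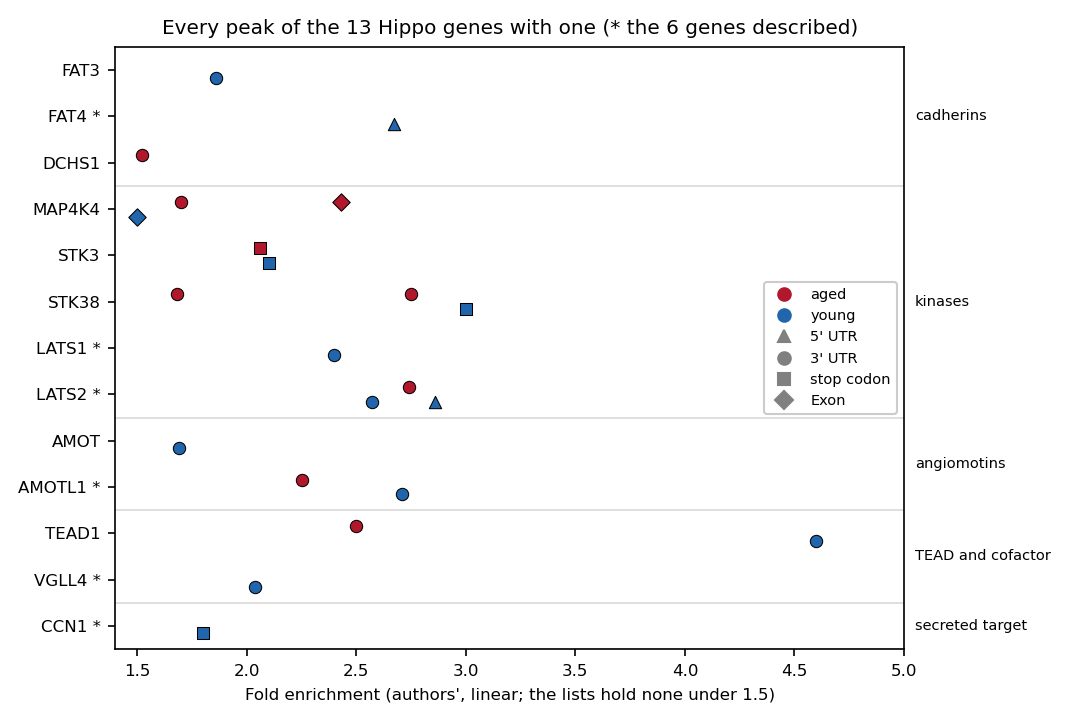
Fold enrichment (x axis, linear, authors' values) of every aged (red) and young (blue) peak of the 13 Hippo genes with a peak, grouped by role, with marker shapes for the feature label and an asterisk on the 6 genes described. STK3 has aged and young values of 2.06 and 2.10, TEAD1 has an aged value of 2.50 and a young value of 4.60, and FAT4, LATS1, VGLL4, CCN1, FAT3 and AMOT have blue markers only.

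A broader set came from the pathway names deposited with the peaks. Of 53 genes with a peak and a Hippo signalling annotation, 3 of the 6 genes among them (FAT4, LATS1 and LATS2), 13 (24.5%, 14.9 to 37.6) had peaks in the aged list only, 23 (43.4%, 31.0 to 56.7) in the young list only and 17 (32.1%, 21.1 to 45.5) in both. These shares are near the 26.9%, 41.3% and 31.8% of all genes with a peak. The deposited gene ontology term for Hippo signalling covered 8 genes with a peak, with 1 in the aged list only (DCHS1), 3 in the young list only (AMOT, FAT4 and LATS1) and 4 in both (AMOTL1, LATS2, STK3 and TEAD1).

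Genes most like LATS2 and AMOTL1 were sought among genes outside the pathway with the same number of peaks in each list, by the Euclidean distance of the log2 of the highest fold in the aged and young lists, which are 2 samples. For AMOTL1, with 1 peak at each age, the nearest of 1064 genes were ZDHHC3 (aged fold 2.31, young fold 2.71, distance 0.038) and HOXC9 (aged fold 2.22, young fold 2.80, distance 0.051). For LATS2, with 1 aged and 2 young peaks, the nearest of 159 genes were PURB (aged fold 2.83, young fold 2.84, distance 0.048) and ETS1 (aged fold 2.57, young fold 2.75, distance 0.108). In all 4 the aged peak was labelled 3' UTR, the label of 66.4% of all aged peaks. None of them had a young peak labelled 5' UTR, the label of only 1.55% of all young peaks.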

How the data were processed

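Peak lists of m6A immunoprecipitates from 1 aged and 1 young ovary sample were analysed, grouped by their age and antibody labels. Input libraries were not used here. Per the labels' protocols, RNA was extracted with Trizol and sequenced from stranded total RNA libraries. Peaks were annotated with ChIPseeker, per the submitters' processing notes, which also name DESeq2. No aligner, peak caller or build is given in the sources used here. Per the file headers, the authors give each peak a p-value, an adjusted p-value and a fold (a ratio on a linear scale). Both log10 columns that the authors deposited were handled as a score.

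Members were matched by gene name. Members and lists were chosen with earlier results of these data known. Coordinates were made 1-based by adding 1 to each start. Chromosome numbers came from the genes' entries in a table of assembly ARS-UI_Ramb_v3.0, which held 99.5% of peaks' genes and gave 1 chromosome per deposited sequence name for 100% of these peaks. As the files name no build, its coordinates were not used and distances to gene ends, planned at first, were not computed. Peaks overlapped if they shared at least 1 base on 1 strand, over genomic spans. A percentile is the rank within a peak's own list. Intervals are 95% Wilson intervals and cover counting error only. Named genes were the 6, every gene of the wider list with a peak, and the 2 genes nearest to LATS2 and to AMOTL1. Genes with no peak, the ovarian markers and the genes with the nearest aged peaks were named outside this rule. The deposited pathway and ontology names, the nearest aged peaks, the 10 classes and the ovarian markers were looked up after the data were seen. Overlap code was tested on simulated peaks. Tools were numpy 2.4.6, pandas 2.3.3, matplotlib 3.10.9 and scipy 1.17.1 in Python 3.11.15.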

Additional observations from a re-analysis of the deposited data

How the results depend on the processing

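Of 43 counts recomputed under 8 other settings, 40 stayed within 1.5 times the value as deposited. The counts of the 6 genes all did: 2 had peaks at both ages in every setting that was run, and the young-only genes numbered 3 in place of 4 without CCN1 (folds of at least 2.00, the pooled median, or exon and UTR labels only) and without FAT4 (equal list lengths of 3656 peaks, taken by p). Over the 45 Hippo genes, those in the aged list only numbered 3 in place of 1 with equal list lengths (DCHS1, MAP4K4 and TEAD1). They numbered 2 with exon and UTR labels only (DCHS1 and STK38). With peaks within 1 exon they also numbered 2 (DCHS1 and MAP4K4), a count that is not among the 43. With folds of at least 2.00 the count stayed at 1, but the gene was MAP4K4 and DCHS1 had no peak left. The young-only ones numbered 3 in place of 6 with folds of at least 2.00. These settings remove peaks by construction, only young ones for equal lengths and mostly young ones for labels. Requiring an overlap of 50% of both peaks, or peaks within 1 exon, could not remove the overlaps of LATS2 and AMOTL1. All 9 peaks lay within 1 exon. The aged and young LATS2 peaks, spanning 200 and 150 bases, shared 150, and those of AMOTL1, spanning 201 and 251 bases, shared 201. An adjusted p of at most 0.01 could not change the counts of the 6 genes either, as no peak of theirs exceeded 0.000195. The fold and label settings could not remove the overlapping peaks of LATS2 and AMOTL1, which had folds of at least 2.25 and 3' UTR labels. Another setting left out genes whose names begin with LOC, which none of the 45 do. Many of the 40 counts thus stayed the same by construction and are no sign of robustness. No paired analysis was possible because each age has 1 list. The labels call the young sample replicate 1 and the aged sample replicate 2, so the replicate label and age cannot be told apart. Depth is unknown, so the lack of an aged peak does not show a lack of methylation.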
